A study of Homo sapiens with 4 samples.

Results

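The core pluripotency factors are proteins that act in the pluripotent state. Their genes are transcribed in ESCs, and many of them are silenced in most cell types as the cells differentiate. The 10 genes described here are POU5F1 (which encodes OCT4), SOX2, NANOG, SALL4, LIN28A, LIN28B, PRDM14, DPPA2, DPPA4 and UTF1. They were taken as a list of names, with earlier results of these data known, and all 10 were found by their Ensembl identifiers among the 60564 gene identifiers of the count tables. All 10 also passed the filter on low counts, which left 22555 genes to test.

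OCT4, SOX2 and NANOG are DNA-binding proteins that occupy one another's regulatory regions and their own, and hold many other genes of the pluripotent state active. OCT4 and SOX2 commonly bind side by side on a composite site. SALL4 and PRDM14 act within this circuit, DPPA2 and DPPA4 work as a pair of chromatin-binding proteins, UTF1 binds chromatin in undifferentiated cells, and the LIN28 proteins bind RNA and block the maturation of the let-7 microRNAs.

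Elf1 cells, a naïve human ESC line derived from a cleavage-stage embryo, were compared between 2-D culture, in which they adhered to Matrigel-coated plastic, and 3-D culture, in which single cells were enclosed for 21 days in a PEG-8-SH/PEG-8-Acr polymer network that assembles around them. Both conditions used the same expansion medium, which holds FGF2, the GSK3 inhibitor CHIR99021, a MEK inhibitor given as PD03296501, and human LIF. The cells had been kept on mouse embryonic feeders and were moved to feeder-free Matrigel before encapsulation. Each condition had 2 biological replicates of this 1 cell line, so that the results describe Elf1 cells and no other line, and the age of the 2-D cultures at harvest is not given in the sources used here.

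The counts of a library summed to between 30114220 and 33833778 in 2-D and between 18276147 and 21154409 in 3-D culture, and the 10 genes held 0.366% to 0.388% of them. Mitochondrially encoded genes held 5.10% and 5.30% of the counts in 2-D and 8.33% and 8.50% in 3-D. Levels are given as CPM, the count of a gene relative to the total of its library, after TMM scaling, which sets the libraries on a common scale by the bulk of their genes. Replicates of a condition differed beyond counting noise. The chi-square of their counts, divided by the degrees of freedom, was 2.45 for the 2-D pair and 4.39 for the 3-D pair. Each of the 10 genes was detected in every library with at least 172 counts. They are genes of ESCs in general, so their detection does not test whether the cells were naïve.

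None of the 10 core factors differed between 3-D and 2-D culture at an adjusted p below 0.05 (edgeR quasi-likelihood test, Benjamini-Hochberg adjustment over all genes tested). Of all genes tested 7.90% did, a share from which 0 of 10 genes cannot be told apart. DESeq2 and edgeR's likelihood ratio test also called 0 of the 10, although DESeq2 gave UTF1 no adjusted p. Other settings called some. Of the 10, 1 was called without edgeR's legacy mode, with limma-trend and with the replicate number as a block. Of all genes, these settings called 1753, 1541 and 2167 of 22555. Library totals as the scaling called 2, beside 2393 of 22555 genes, and no filter on low counts called 2, beside 2486 of 42231. Leaving out a 3-D library also changed which of the 10 were called, as described below. At an unadjusted p below 0.05, 5 of the 10 passed (SOX2, NANOG, PRDM14, DPPA4 and UTF1), against 21.3% of all genes. The adjusted p of the 10 genes ran from 0.0793 for PRDM14 to 0.994 for LIN28A. The median log2 fold change of the 10 was 0.040, and their log2 fold changes lay between -0.10 (PRDM14) and 0.28 (UTF1). The median size of change, regardless of sign, was 0.088 on the log2 scale, beside 0.13 over all genes tested. Over the 80 tested genes of the 4 related lists described below it was 0.069, so the 10 did not move less than those. For 7 of the 10 the libraries of the 2 conditions did not overlap, 5 of them higher and 2 lower in 3-D, where 50.5% of all genes tested showed no overlap. When libraries were scaled by their totals alone, LIN28A, LIN28B and POU5F1 turned to the lower side in 3-D, at log2 fold changes of -0.064, -0.028 and -0.021, and PRDM14 and DPPA4 were called lower. In RNA from whole cultures, fewer cells expressing a gene and less of its RNA per cell cannot be told apart.

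**Figure D1:**
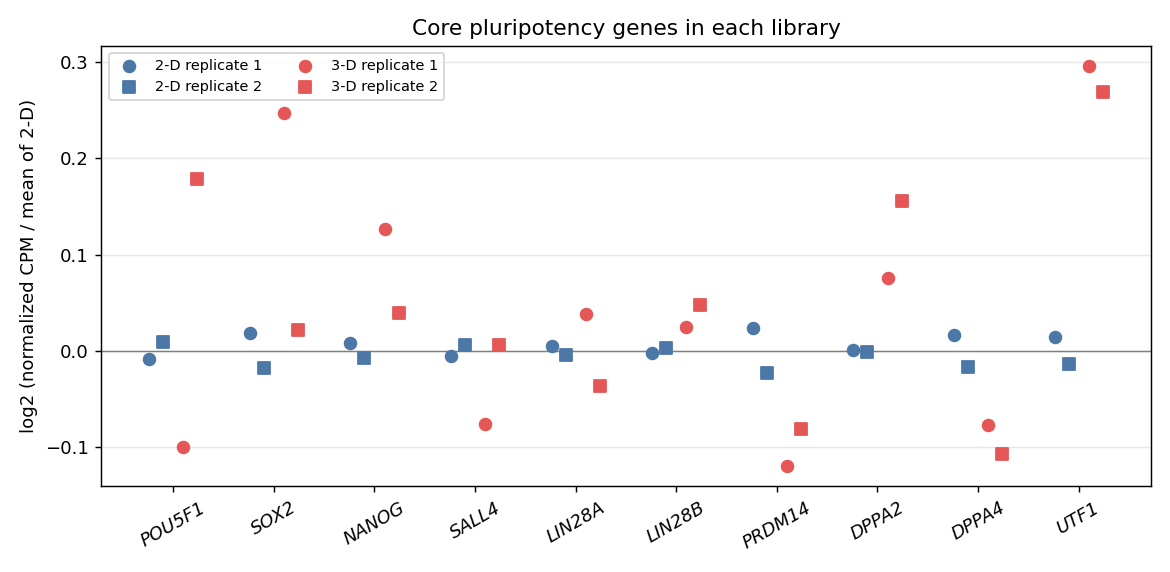
Normalised CPM of the 10 core pluripotency genes in each library, as the log2 ratio to the mean of the 2-D libraries (y axis); blue points are 2-D and red points 3-D libraries, circles replicate 1 and squares replicate 2. The 2-D libraries lie close together for every gene, while the 3-D libraries lie apart for POU5F1 and SOX2, in opposite order.

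POU5F1 (ENSG00000204531.18, chr6:31164337-31180731 on the minus strand of hg38) encodes the POU-domain factor OCT4, without which the pluripotent state is lost. Its level was 115.6 and 117.0 CPM in the 2-D libraries and 108.5 and 131.6 CPM in the 3-D libraries. The 3-D libraries stood on either side of the 2-D pair, so the groups overlapped. The means were 116.3 ± 0.939 CPM in 2-D and 120.0 ± 16.3 CPM in 3-D (SD, n = 2 in each). Between 3-D and 2-D this was a log2 fold change of 0.043 ± 0.062 (SE), with an adjusted p of 0.764 (edgeR quasi-likelihood test). The 95% interval of the fold ran from 0.939 to 1.13.

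SOX2 (chr3:181711925-181714436, plus strand) encodes the HMG-box partner of OCT4. Its level was 220.3 and 214.8 CPM in 2-D and 258.2 and 220.7 CPM in 3-D. Both 3-D libraries were above both 2-D libraries, but the lower of them exceeded the nearest 2-D library by a margin much smaller than the gap between the 3-D replicates. The mean was 217.5 ± 3.83 CPM in 2-D and 239.4 ± 26.5 CPM in 3-D (SD, n = 2 in each). The log2 fold change was 0.14 ± 0.054 (SE) with an adjusted p of 0.153 (edgeR quasi-likelihood test), and the 95% interval of the fold ran from 1.01 to 1.20.

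NANOG (chr12:7787794-7799146, plus strand) encodes a homeodomain factor that stabilises self-renewal. Its level was 199.2 and 197.0 CPM in 2-D and 216.2 and 203.5 CPM in 3-D, with both 3-D libraries above both 2-D libraries. The mean was 198.1 ± 1.52 CPM in 2-D and 209.9 ± 8.93 CPM in 3-D (SD, n = 2 in each). With a log2 fold change of 0.084 ± 0.034 (SE), NANOG had an adjusted p of 0.173 (edgeR quasi-likelihood test), and the 95% interval of the fold ran from 1.01 to 1.11.

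The 3-D replicates lay far apart for POU5F1 and SOX2. From 3-D replicate 1 to replicate 2 the log2 level of POU5F1 differed by 0.28 (counting SE 0.043), a gap that 2.93% of the 10210 genes with a mean of at least 10 CPM equalled or exceeded. SOX2 differed by -0.23 (counting SE 0.030) in the opposite direction, which 5.63% of those genes equalled or exceeded. For NANOG the gap was -0.087, which 36.4% of the genes equalled or exceeded. In 2-D the gaps of POU5F1 and SOX2 were 0.017 and -0.036, which most genes exceeded.

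The ratio of POU5F1 to SOX2 counts was 0.525 and 0.544 in the 2-D libraries, 0.420 in the first 3-D replicate and 0.596 in the second. The 3-D libraries held both the lowest and the highest ratio. This ratio and the gap above take POU5F1 without its copies, which are described below. Summed with its named copies, POU5F1 stood at 194.2 and 185.3 CPM in 2-D and at 156.1 and 170.4 CPM in 3-D. The 3-D replicates then lay closer together, and both were below the 2-D libraries. SOX2 to NANOG varied less, at 1.11 and 1.09 in 2-D and 1.19 and 1.08 in 3-D.

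Leaving out a 3-D library moved these genes more than leaving out a 2-D library. In such fits the lone library of a condition was assumed to vary like the pair of the other. Without 3-D replicate 1, POU5F1 was higher in 3-D by a log2 fold change of 0.18, and SOX2 fell to a log2 fold change of 0.022. Without 3-D replicate 2, POU5F1 turned to -0.098, whereas SOX2 was higher by 0.25 and NANOG by 0.13. Without 2-D replicate 1 or 2, POU5F1 stood at 0.035 and 0.052, SOX2 at 0.16 and 0.12, and NANOG at 0.091 and 0.076. No direction for POU5F1 counted alone was therefore shared by the 3-D libraries.

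**Figure D2:**
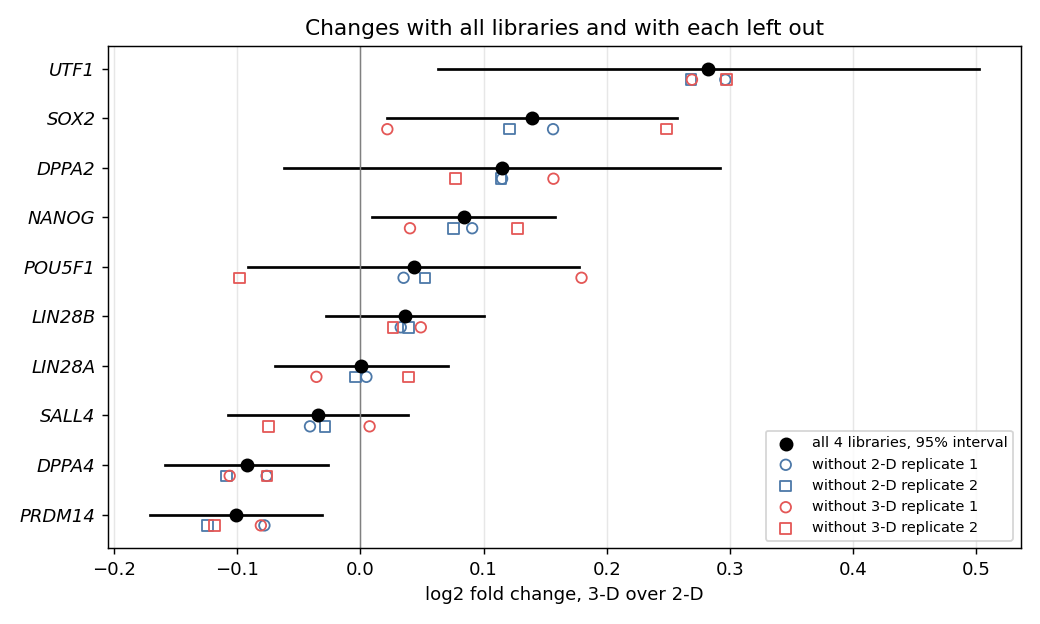
Log2 fold change of 3-D over 2-D (x axis) for each of the 10 genes; black points with bars are the edgeR estimates from all 4 libraries with 95% intervals, and open symbols below them are estimates with 1 library left out. Leaving out 3-D replicate 1 or 3-D replicate 2 moved POU5F1 to opposite sides of 0, at 0.18 and -0.098.

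NANOG carries in its promoter the kind of site on which the core factors act together, and it is shown for that reason. The sequence is that of RefSeq on GRCh38.p14, chr12:7789222-7789355 on the plus strand, and overlaps no annotated exon. It lies before the transcription start that RefSeq lists, although the GENCODE span of the gene begins further upstream. Capitals mark the match to the SOX-OCT composite motif (CATTGT, any base, then ATGCAAA), found here on the opposite strand from 120 to 107 bases before the transcription start.
NANOG promoter: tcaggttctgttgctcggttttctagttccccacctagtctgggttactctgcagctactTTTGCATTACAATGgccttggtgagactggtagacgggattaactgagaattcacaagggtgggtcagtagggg
Searched on both strands, this motif occurred in 3 of 35116 promoter windows of the same table (0.00854%), each from 250 bases before to 50 after a start. The table gave 7 windows for 6 of the core factors (NANOG, SOX2, LIN28B, DPPA2, DPPA4 and UTF1), and 1 of them, that of NANOG, held it. The octamer ATGCAAAT was in none of the 7 and in 1.77% of all windows, and its shorter core ATGCAAA, which lies within both other motifs, was in the windows of NANOG and SOX2 and in 4.46% of all. A match of letters is not evidence of binding, and no match says only that these letters are not in the window.

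POU5F1 and NANOG also have copies elsewhere in the genome, and counts given to a copy may be reads of the parent gene or the reverse. How the counting treated reads that map to several places is not given in the sources used here. POU5F1P3 (chr12:8133772-8134849), a processed pseudogene of POU5F1, differed from the POU5F1 transcript by 20 mismatches over 1080 aligned positions. It received 2420 and 1896 counts in the 2-D libraries and 849 and 560 counts in the 3-D libraries. Both 3-D libraries were below both 2-D libraries, at 41.3 and 31.2 CPM against 70.3 and 61.5 CPM.

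POU5F1P3 fell in 3-D culture by 0.86 on the log2 scale ± 0.096 (SE), to 0.552 times its 2-D level (adjusted p = 0.000216, edgeR quasi-likelihood test). This call was made in each of the 16 alternatives in which it was computed. Its counts made up 37.8% (95% exact binomial interval 36.6% to 39.0%) and 34.5% (33.2% to 35.7%) of the counts of POU5F1 and POU5F1P3 together in 2-D. In 3-D the share was 27.6% (26.0% to 29.2%) and 19.2% (17.8% to 20.7%), intervals that cover counting error only. The share was lower in both 3-D libraries than in both 2-D libraries, and it also differed between the 3-D replicates beyond counting error.

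Of 780 windows of 150 bases, the length of a read, aligned between POU5F1 and POU5F1P3 without a gap, 31 (3.97%) held no mismatch, and the median window held 3. Each of the other windows differed at 1 base or more.

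NANOGP8 (chr15:35083410-35085295), a retrocopy of NANOG that GENCODE lists as protein coding, is closer to its parent, with 99.3% identity over 1886 aligned positions. No window of 150 bases held more than 2 mismatches, and 423 of 1543 (27.4%) held none. One of the windows that differ most is shown, because it carries the bases by which a read can be placed, with the 2 differing bases in capitals. Sequences are from GENCODE 44 transcripts on hg38, and positions are counted from the first base of each transcript.
NANOG bases 214 to 363: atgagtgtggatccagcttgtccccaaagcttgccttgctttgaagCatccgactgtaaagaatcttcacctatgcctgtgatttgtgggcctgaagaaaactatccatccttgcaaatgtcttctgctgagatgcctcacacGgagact
NANOGP8 bases 186 to 335: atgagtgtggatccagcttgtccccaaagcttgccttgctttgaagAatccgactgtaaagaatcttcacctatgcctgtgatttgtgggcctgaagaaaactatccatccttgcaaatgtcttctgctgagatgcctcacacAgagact
NANOGP8 stood at 34.5 and 31.6 CPM in 2-D and 37.7 and 36.8 CPM in 3-D, with a log2 fold change of 0.17 and an adjusted p of 0.136 (edgeR quasi-likelihood test). Both 3-D libraries were above both 2-D libraries, the same order as for NANOG itself.

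When the counts of each gene and its named copies were summed, NANOG with its 11 copies stood at 240.6 and 234.9 CPM in 2-D and 259.4 and 246.5 CPM in 3-D, an adjusted p of 0.136 in the edgeR quasi-likelihood test. POU5F1 with its 6 named copies stood at 194.2 and 185.3 CPM in 2-D and 156.1 and 170.4 CPM in 3-D, so that both 3-D sums were below both 2-D sums. The log2 fold change of the POU5F1 sum was -0.22 ± 0.041 (SE), with an adjusted p of 0.00572 in the same test, and it lay between -0.28 and -0.15 with each library left out. With a further copy of POU5F1 that is annotated as protein coding added, it was -0.16 (adjusted p = 0.0163, same test). The sums were chosen after seeing the data. POU5F1 counted alone and POU5F1 counted with its copies thus differed in the sign of the estimate and in whether it passed the test.

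**Figure D3:**
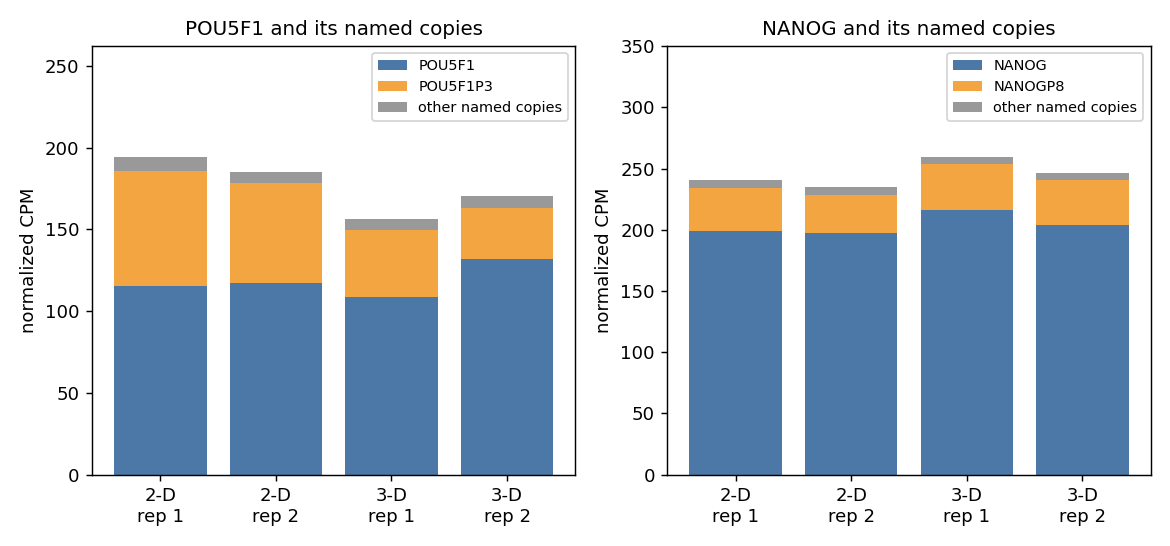
Normalised CPM (y axis) of POU5F1 (left) and NANOG (right) in each library, stacked with those of POU5F1P3 or NANOGP8 and of the other named copies. The copies made up 40.5% and 36.9% of the POU5F1 stack in 2-D and 30.5% and 22.8% in 3-D, and 16.1% to 17.4% of the NANOG stack.

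Copies took little from the other genes. Named copies of SALL4, LIN28A, DPPA2 and DPPA4 held at most 1.13% of the counts of gene and copies together. On hg38 as a whole, alternate contigs included, POU5F1 had 6 near-identical copies over at least 80% of its transcript, all on alternate contigs. The other 9 genes had none of that length. This rule leaves out shorter copies such as NANOGP8, whose 1886 bases match part of the NANOG transcript of 5182 bases. Whether such contigs were part of the alignment is not given in the sources used here. Of the genes that overlap a core factor, TCF19 (with POU5F1), SOX2-OT (with SOX2) and LIN28B-AS1 (with LIN28B) did not pass the test and held at most 198 counts, and the others held at most 9.

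SALL4 (chr20:51782331-51802521, minus strand) encodes a zinc finger factor that recruits the NuRD complex, a chromatin-modifying corepressor. Its level was 390.3 and 393.4 CPM in 2-D and 371.7 and 393.6 CPM in 3-D, and the groups overlapped. SALL4 had a log2 fold change of -0.035 ± 0.034 (SE) and an adjusted p of 0.628 (edgeR quasi-likelihood test). The 3-D libraries differed from each other by more than the 2-D libraries did.

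PRDM14 (chr8:70051651-70071693, minus strand) encodes a PR-domain factor that represses genes of differentiation. It stood at 119.6 and 115.8 CPM in 2-D and at 108.3 and 111.2 CPM in 3-D, both 3-D libraries below both 2-D libraries. The means were 117.7 ± 2.70 CPM and 109.8 ± 2.07 CPM (SD, n = 2 in each). The log2 fold change of -0.10 ± 0.032 (SE) had the smallest p of the 10 genes and an adjusted p of 0.0793 (edgeR quasi-likelihood test). PRDM14 was called in 2 of 18 alternatives. Without 3-D replicate 2 the adjusted p was 0.0217 in the same test, against 0.144 without 3-D replicate 1 and 0.553 and 0.217 without a 2-D replicate, and DESeq2 gave 0.385. When libraries were scaled by their totals alone, which moved the median of all genes by -0.065, PRDM14 was called as well.

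DPPA4 (chr3:109326144-109337546, minus strand) and DPPA2 (chr3:109293788-109316517, minus strand) are neighbours in the genome, and their proteins bind chromatin together through SAP domains. DPPA4 stood at 730.2 and 713.4 CPM in 2-D and at 684.0 and 670.1 CPM in 3-D. All 3-D values were below the 2-D values, and both pairs of replicates were close, with means of 721.8 ± 11.9 CPM and 677.1 ± 9.85 CPM (SD, n = 2 in each). This came to a log2 fold change of -0.092 ± 0.030 (SE), with an adjusted p of 0.0907 (edgeR quasi-likelihood test).

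DPPA2 stood at 14.2 CPM in both 2-D libraries and at 15.0 and 15.8 CPM in 3-D. Both 3-D values were thus above the 2-D values. DPPA2 had a log2 fold change of 0.11 ± 0.081 (SE) and an adjusted p of 0.475 (edgeR quasi-likelihood test). The ratio of DPPA4 to DPPA2 counts was 51.3 and 50.2 in 2-D and 45.7 and 42.3 in 3-D, lower in both 3-D libraries. That ratio was not tested, and the DPPA2 counts behind it were between 284 and 490 per library.

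DPPA4 was the core factor whose call depended most often on the settings. It passed the test lower in 3-D in 6 of 18 alternatives, among them edgeR without its legacy mode, limma-trend and no filter on low counts. Without 3-D replicate 1 its log2 fold change was -0.11 (adjusted p = 0.00401) and without 3-D replicate 2 it was -0.076 (adjusted p = 0.0447), both in edgeR's quasi-likelihood test. Without 2-D replicate 1 or 2 the adjusted p was 0.54 and 0.277 in that test. The estimate was below 0 in all 18 alternatives, between -0.16 and -0.076.

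LIN28A (chr1:26410817-26429728, plus strand) was the highest of the core factors, at 1771 and 1759 CPM in 2-D and 1812 and 1721 CPM in 3-D. The groups overlapped, and the means of 1765 ± 8.35 CPM and 1766 ± 64.2 CPM (SD, n = 2 in each) nearly coincided. The log2 fold change was 0.00080 with a 95% interval from -0.069 to 0.071, and the adjusted p was 0.994 (edgeR quasi-likelihood test). Its sign changed in 6 of 18 alternatives.

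LIN28B (chr6:104936616-105083332, plus strand), its paralog, which in many cells acts on let-7 precursors in the nucleus, stood at 247.2 and 248.2 CPM in 2-D and at 251.9 and 256.0 CPM in 3-D. Both 3-D libraries were above the 2-D libraries by a narrow margin, with a log2 fold change of 0.036 ± 0.030 (SE) and an adjusted p of 0.552 (edgeR quasi-likelihood test). LIN28A exceeded LIN28B in counts by 7.17 and 7.09 times in 2-D and by 7.19 and 6.72 times in 3-D. These ratios take no account of the length of the genes, and levels per kb of exon are given below.

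UTF1 (chr10:133230217-133231558, plus strand), whose protein limits the access of other factors to developmental genes, had the largest fold change of the 10 and the fewest counts. It received 277 and 243 counts in 2-D and 201 and 172 counts in 3-D, or 8.04 and 7.89 CPM against 9.78 and 9.60 CPM. Replicates were close in both conditions, and both 3-D libraries were higher. The means were 7.96 ± 0.112 CPM and 9.69 ± 0.131 CPM (SD, n = 2 in each). UTF1 had a log2 fold change of 0.28 ± 0.10 (SE), with an adjusted p of 0.12 (edgeR quasi-likelihood test) and a 95% interval of the fold from 1.04 to 1.42. It stayed between 0.22 and 0.33 in the 18 alternatives, and was called in none of them. Counting alone gave an error of up to 7.62% for a UTF1 value, against 0.405% for the best counted LIN28A value.

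Levels can be set beside one another only per length. On the scale of CPM per kb of exon, LIN28A was highest at 444.2 (library range 432.9 to 455.7), followed by DPPA4 at 140.8, SOX2 at 90.97 and SALL4 at 67.08. PRDM14 followed at 48.03, LIN28B at 42.21, POU5F1 at 41.18 and NANOG at 37.83, and DPPA2 at 10.72 and UTF1 at 7.27 were lowest. The ranges over the 4 libraries overlapped between LIN28B and POU5F1 and between POU5F1 and NANOG, and between no other neighbours. POU5F1 and NANOG were taken without their copies, which held 22.8% to 40.5% and 16.1% to 17.4% of the counts of gene and copies together. The place of POU5F1 depended on the length used, since it stood at 83.87 CPM per kb, in place 4, with its canonical transcript of 1409 bases in place of all its annotated exons of 2870 bases.

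Among all genes tested, ranked by CPM without regard to length, LIN28A lay at percentile 99.9, DPPA4 at 99.4 and SALL4 at 98.4. DPPA2 at percentile 60.5 and UTF1 at 52.8 lay near the middle. The CPM of all 10 genes summed to 3816 and 3781 in 2-D and to 3835 and 3733 in 3-D, where the 3-D libraries again stood on either side.

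**Figure D4:**
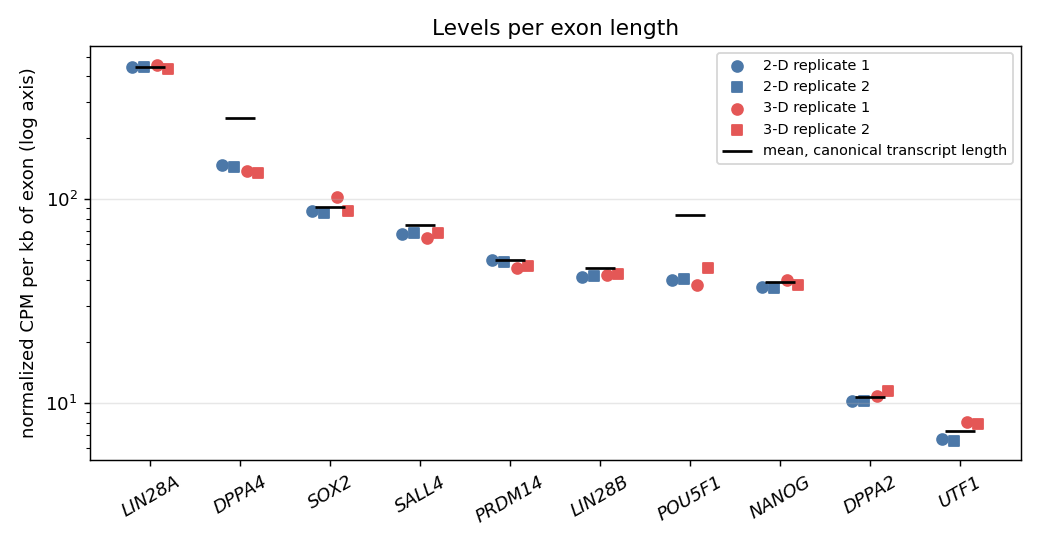
Normalised CPM per kb of annotated exon (y axis, log scale) in each library for the 10 genes, with blue for 2-D and red for 3-D libraries; black lines give the mean with the length of the canonical transcript instead. LIN28A stands above all others, and POU5F1 and DPPA4 are the genes whose level depends most on the length.

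Genes that work with or under the core factors were taken from 4 lists written from general knowledge, of which 80 genes were tested and 14 called. The median size of change of the 80 was 0.069 on the log2 scale, beside 0.13 over all genes tested. Their shares called, given below, are thus no measure of larger changes, and the part of their expression level in these shares was not tested. Of 23 tested target genes of the network, 3 were called higher and 1 lower in 3-D. That was 17.4% called, against 7.90% of all genes, or 4.54% called higher and 3.36% called lower. The median log2 fold change of the 23 was 0.038. L1TD1, an RNA-binding protein of ESCs, rose from 995.9 and 994.3 CPM to 1175 and 1135 CPM, a log2 fold change of 0.21 (adjusted p = 0.00111, edgeR quasi-likelihood test). DNMT3B, a de novo DNA methyltransferase, rose by 0.17 (adjusted p = 0.00429), and KLF5, a Krüppel-like factor, from 46.9 and 48.0 CPM to 56.2 and 57.2 CPM, by 0.26 (adjusted p = 0.00336). LEFTY1, a secreted inhibitor of NODAL signalling, was the called gene that fell, from 33.4 and 33.9 CPM to 26.2 and 24.7 CPM, by 0.40 on the log2 scale (adjusted p = 0.00217). In each of these 4 genes the 3-D replicates lay closer to each other than to either 2-D library.

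Of 21 protein partners and corepressors, 3 rose and none fell at an adjusted p below 0.05 (14.3% called, against 7.90% of all genes, median log2 fold change 0.036). They were GATAD2A, a subunit of NuRD, by 0.29 (adjusted p = 0.000156, edgeR quasi-likelihood test), NACC1, a BTB-domain partner of the core factors, by 0.21 (adjusted p = 0.00105), and ARID3B, an AT-rich DNA-binding factor, by 0.21 (adjusted p = 0.00148). By an unadjusted p below 0.05, 8 of the 21 passed, against 21.3% of all genes tested.

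Of 18 genes on the path from LIN28 to let-7 and its targets, 3 were called higher in 3-D and none lower. That was 16.7% called, against 7.90% of all genes. By estimate 11 of the 18 were higher and 7 lower, with a median log2 fold change of 0.027. HMGA1, a chromatin architectural protein related to the let-7 target HMGA2, rose from 1143 and 1153 CPM to 1404 and 1415 CPM, by 0.30 (adjusted p = 7.59e-05, edgeR quasi-likelihood test). DROSHA, the nuclease that cuts primary microRNAs, rose by 0.27 (adjusted p = 0.000308), and IGF2BP2, an RNA-binding let-7 target, by 0.15 (adjusted p = 0.0108). Ribosome-depleted libraries of this kind do not measure mature microRNAs, so let-7 itself has no value here.

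Of 18 tested relatives of the core factors by protein family, 4 rose and none fell (22.2% called, against 7.90% of all genes, median log2 fold change 0.073). SALL2 rose from 138.7 CPM in both 2-D libraries to 161.8 and 159.2 CPM, by 0.21 (adjusted p = 0.000945, edgeR quasi-likelihood test), and SALL1 rose by 0.14 (adjusted p = 0.0263), while SALL4 itself had the value of -0.035 given above. PRDM2 rose by 0.21 (adjusted p = 0.0046) and SOX13 by 0.15 (adjusted p = 0.0367). The calls of SALL1 and SOX13 were each lost in 8 of 16 alternatives, that of IGF2BP2 in 4 and that of DNMT3B in 1.

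**Figure D5:**
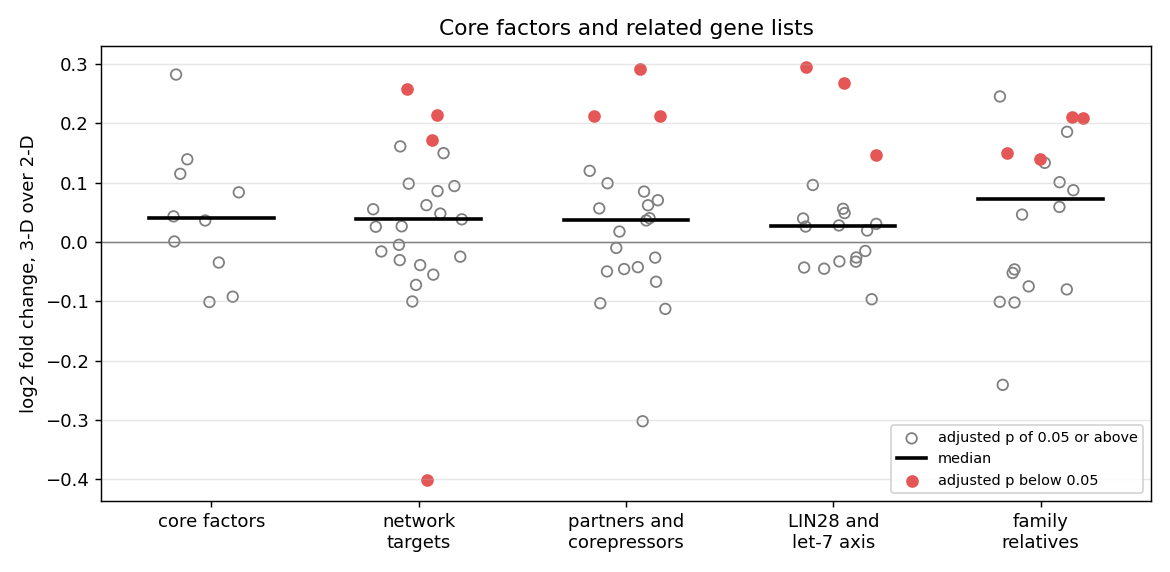
Log2 fold change of 3-D over 2-D (y axis) for the 10 core factors and the tested genes of the 4 related lists, with 1 point per gene; filled red points have an adjusted p below 0.05 and black lines are medians. No core factor is filled, and of the 14 filled genes only LEFTY1 lies below 0.

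Patterns over the 4 libraries were compared by the root mean square difference of centred log2 CPM, over 69 genes of these lists with a mean of at least 10 CPM. MYCN (0.053) and DIS3L2 (0.064) lay nearest to POU5F1, TUT7 (0.038) and ZIC2 (0.044) to SOX2, and HDAC2 (0.016) and JARID2 (0.016) to NANOG. TUT7, the uridylyl transferase that acts with LIN28 on let-7 precursors, stood at 51.0 and 52.5 CPM in 2-D and 58.7 and 51.7 CPM in 3-D, again with 3-D replicate 1 highest. With 4 libraries, likeness of pattern is a description only.

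Markers of cell types that arise by differentiation were read in the same libraries. Summed over 7 trophoblast markers the level was 3.19 to 4.04 CPM, with CGA and VGLL1 at 0 counts in every library, and over 6 endoderm markers it was 19.3 and 19.4 CPM in 2-D and 21.4 and 21.7 CPM in 3-D. Over 6 mesoderm markers it was 57.1 and 57.6 CPM in 2-D and 62.3 and 63.3 CPM in 3-D. The neural list reached 577.7 to 603.2 CPM, nearly all of it NES, which ESCs also express, while 4 of its 6 genes stayed below 10 counts in every library. No gene of these 4 lists passed the test (edgeR quasi-likelihood test), and 3 of their 13 tested genes had an unadjusted p below 0.05, against 21.3% of all genes. Of the 13, 12 had estimates above 0, with a median log2 fold change of 0.19. The largest belonged to GATA6, an endoderm factor, at 0.842 and 1.10 CPM in 2-D and 2.33 and 1.51 CPM in 3-D, a log2 fold change of 1.001 (adjusted p = 0.0516), and to HAND1, a mesoderm factor, at 0.98 (adjusted p = 0.0695), from at most 48 counts per library in the same test.

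The 6 germ cell markers, read because PRDM14, SALL4 and LIN28A are also genes of germ cells, summed to 104.4 and 105.2 CPM in 2-D and 106.9 and 106.3 CPM in 3-D, most of it TFAP2C. The 6 fibroblast markers summed to 461.2 and 453.8 CPM in 2-D and 461.6 and 504.4 CPM in 3-D. Of the 4 tested, 2 were called, both higher in 3-D, against 7.90% of all genes: COL1A1 by a log2 fold change of 0.29 (adjusted p = 0.000779) and COL3A1 by 0.73 (adjusted p = 0.000704) in edgeR's quasi-likelihood test. COL1A2, the highest of the list at 300.7 to 324.8 CPM, had a log2 fold change of -0.037 (adjusted p = 0.649) and PDGFRB one of 0.017 (adjusted p = 0.961) in that test. DCN and LUM had at most 17 counts in any library. The endoderm, mesoderm and neural sums were higher in both 3-D libraries, and their part in the levels of the core factors was not tested.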

How the data were processed

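RNA of 2 replicates each of 2-D and 3-D grown Elf1 cells was depleted of ribosomal RNA and sequenced with paired ends. The authors trimmed reads with Trim Galore 0.6.3, mapped them to hg38 with HISAT2 2.1.0 and deposited whole-number counts per gene from featureCounts 1.6.4 on GENCODE 30, without normalization and without pooling. Whether strand was used in the counting is not given in the sources used here. A deposited table also holds the authors' normalized signal (counts divided by a DESeq2 size factor per library), used only in an alternative fit with limma-trend, and their own fold changes, statistics and p-values, which were not used.

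Gene identifiers were matched to GENCODE 44 (60295 of 60564, 269 unmatched). Counts were analysed in R 4.3.3 with edgeR 4.0.16 by its quasi-likelihood test in legacy mode, with condition alone, TMM scaling, its filter on low counts and Benjamini-Hochberg adjustment over 22555 genes. A gene with an adjusted p below 0.05 is called. SE is the size of the log2 fold change over the square root of F. P-values set the difference between the conditions against the spread between these replicates, with the spread of each gene drawn toward that of the others. The biological coefficient of variation was 5.10%. The procedure was checked on simulated counts.

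The genes and lists were chosen with earlier results of these data known. Named are all 10 core factors, up to 4 called genes per direction of each related list, copies and overlapping genes, and the 2 nearest patterns. Lists were written from general knowledge. Transcripts were aligned to hg38 with minimap2 2.31 (copies have at least 80% of the length and 98% identity) and to their copies with Biopython 1.88. Alternatives used DESeq2 1.42.0, limma 3.58.1, edgeR's likelihood ratio test, edgeR without legacy mode, other scalings and filters, thinned 2-D libraries, a replicate block, and each library left out. Figures were drawn with matplotlib 3.10.9. Some sequences and genes are not reported here.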

Additional observations from a re-analysis of the deposited data

How the results depend on the processing

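Of the core factors' log2 fold changes recomputed under another setting, 153 kept direction and side of the threshold, 14 passed the threshold in the same direction, 12 changed sign (of which 2, the sums of POU5F1 with its copies, passed it) and 1 lost its adjusted p (UTF1 in DESeq2). The number of genes called was 1782 of 22555 (1024 higher and 758 lower in 3-D). It was 795 (511 and 284) with DESeq2, which gave an adjusted p to only 10229 genes. With the likelihood ratio test it was 1139 of 22555 (651 and 488). When libraries were scaled by their totals alone it split into 514 higher and 1879 lower. The number of core factors called was 0 with the settings described. It was 1 without legacy mode and with limma-trend (DPPA4 in both), where 1753 and 1541 of 22555 genes were called. It was 2 with library size only (PRDM14 and DPPA4), where 2393 of 22555 genes were called. Without a filter on low counts it was 2 (SOX2 and DPPA4), where 2486 of 42231 genes were called. Each form of summed copies called 1 (POU5F1), where 1787 and 1786 genes were called. With 1 library left out, genes called ranged from 974 to 2643 (560 to 1468 higher, 414 to 1175 lower), core factors called from 0 to 4 and genes of the 4 related lists called from 12 to 23. The fewest genes were called without 2-D replicate 2, and the 4 core factors (SOX2, NANOG, PRDM14 and DPPA4) were called without 3-D replicate 2. The cause of these differences was not tested.

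Without 1 library, POU5F1 ranged from -0.098 to 0.18, SALL4 from -0.075 to 0.0074 and LIN28A from -0.036 to 0.039. LIN28A turned to -5e-04 with limma-trend, -0.064 with library size only, -0.0012 without a filter, -0.0068 with at least 10 counts in every library, -0.0040 without 2-D replicate 2 and -0.036 without 3-D replicate 1. POU5F1 turned to -0.021 with library size only, -0.098 without 3-D replicate 2, -0.22 summed with its copies and -0.16 with the further copy. LIN28B turned to -0.028 with library size only and SALL4 to 0.0074 without 3-D replicate 1.

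The labels number the replicates but do not pair them, and deviations of same-numbered libraries correlated at -0.114. A fit with the replicate number as a block called 2167 genes and 1 core factor (SOX2, adjusted p = 0.0343 in edgeR's quasi-likelihood test). With the numbers crossed, a fit chosen after seeing the data, the block called 2212 genes and 1 core factor.

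Depth limited UTF1 and DPPA2 most, since counting error alone reached 7.62% for UTF1.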
